A study of Mus musculus with 24 samples.

Results

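Control macrophages of a doxycycline-inducible RAW 264.7 line that carried GFP were compared after 5 h of lipopolysaccharide (LPS) and before it, a comparison of 8 of the 24 RNA sequencing libraries of the study. The members were the 4 libraries titled as GFP line at 5 h and the 4 titled as GFP line at 0 h, and the transcript with the highest mean count stood for each gene. RAW 264.7 is an established mouse macrophage line, and the study used a pair of stable derivatives of it, one with an inducible construct for the nuclear receptor Nur77 and one with GFP in its place. Cells of both lines were kept for 18 h in 50 ng/ml doxycycline and then received 500 ng/ml LPS for 0, 1 or 5 h, with 4 libraries in each of the 6 groups. The 0 h cells had therefore also received doxycycline, but no LPS. The study held no group kept for 5 h in parallel without LPS, so LPS and time in culture cannot be told apart. Each construct was present in 1 stable line, and GFP is not among the mouse transcripts of the table, so its induction was not checked here. Whether the replicates were separate cultures is not in the labels, and a p-value therefore measures the spread among these libraries, which may be technical.

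LPS, a component of the outer membrane of Gram-negative bacteria, is sensed by Toll-like receptor 4 with its partners Cd14 and Md-2. The adaptor Myd88 carries the signal to NF-kB and to the MAP kinases that act on AP-1 dimers of Fos and Jun proteins, and the adaptor Trif carries it to Irf3 and to interferon beta. Immediate early genes need no new protein, whereas secondary genes wait for cytokines, interferon and newly made factors, and feedback inhibitors such as A20 and the IkB proteins limit the response.

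The libraries of the comparison held 11015512.5 to 21893987 counts over 25160 genes at 0 h and 14623439.5 to 25079443 at 5 h. Libraries of a group correlated at 0.989 to 0.994 at 0 h and at 0.994 to 0.995 at 5 h on log2 CPM (CPM, counts scaled to a common library size after TMM adjustment, which trims the genes of extreme ratio). Across the study, Nur77 line 1 h replicate 2 stood apart from its group on the first principal component of log2 CPM (11.6 against -11.4 to -10.2), and it is in neither group of the comparisons below, though it enters the shared filter, scaling and estimate of spread. In CPM without TMM, the macrophage identity list summed to 15024 to 15588 CPM before LPS and 12008 to 12385 CPM at 5 h. In bulk libraries, fewer cells of a type and less RNA per cell cannot be told apart. All 8 epithelial markers were at 0 in both groups. Fibroblast markers summed to 0.363 to 1.21 CPM at 0 h and 2.65 to 3.79 CPM at 5 h, with 5 and 6 of 10 genes detected and Col3a1, Lum and Thy1 at 0. Of the lymphocyte markers, which summed to 7.71 to 8.45 and 14.9 to 15.7 CPM, Cd3e, Cd3g, Cd8a and Ms4a1 were at 0 in both groups, and Lck, a kinase of T cell receptor signalling, was at 6.78 to 7.41 and 15.8 to 16.9 TMM-adjusted CPM. Neutrophil markers summed to 3.49 to 4.82 and 2.55 to 4.10 CPM, with Ngp, Retnlg and S100a9 at 0, and endothelial markers to 40.9 to 68.2 and 33.4 to 36.2 CPM, with Emcn and Esam at 0. The part of these genes in the results below was not tested. One ribosomal RNA transcript took 0.434 to 1.28% of the counts at 0 h and 0.189 to 0.541% at 5 h. GFP line 0 h replicate 2 stood somewhat above the other 0 h libraries for transcripts that LPS raised most: the 76 genes higher by at least 6 on the log2 scale summed, in TMM-adjusted CPM, to 81.4, 120.1, 94.7 and 93.1 CPM in 0 h replicates 1 to 4, against 28639 to 29665 CPM at 5 h. Values without that library are given where it moves a fold change by over 1.5 times.

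Most of the transcriptome of the GFP line differed between 5 h of LPS and 0 h. All levels below are TMM-adjusted CPM, and means carry the SD of 4 libraries. Of 12213 genes tested with edgeR's quasi-likelihood test and Benjamini-Hochberg adjustment, which gave all adjusted p-values below, 7642 (62.6%) were called at an adjusted p under 0.05. Of these, 3741 (30.6% of the genes tested) were higher at 5 h and 3901 (31.9%) lower, and the median log2 fold change of all genes was -0.02. The rises were the larger changes: 1027 genes (8.41%) rose by at least 1 on the log2 scale and 948 (7.76%) fell by as much, while 160 rose and 13 fell by at least 4, and 76 rose and none fell by at least 6 among the genes called. CPM of the groups did not overlap for 7362 genes (60.3%). Counts of genes in a list are read against these shares. A gene with almost no counts at 0 h passed the filter on low counts through its 5 h level and so had to differ. Such genes are among the risen members counted in some lists below.

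**Figure D1:**
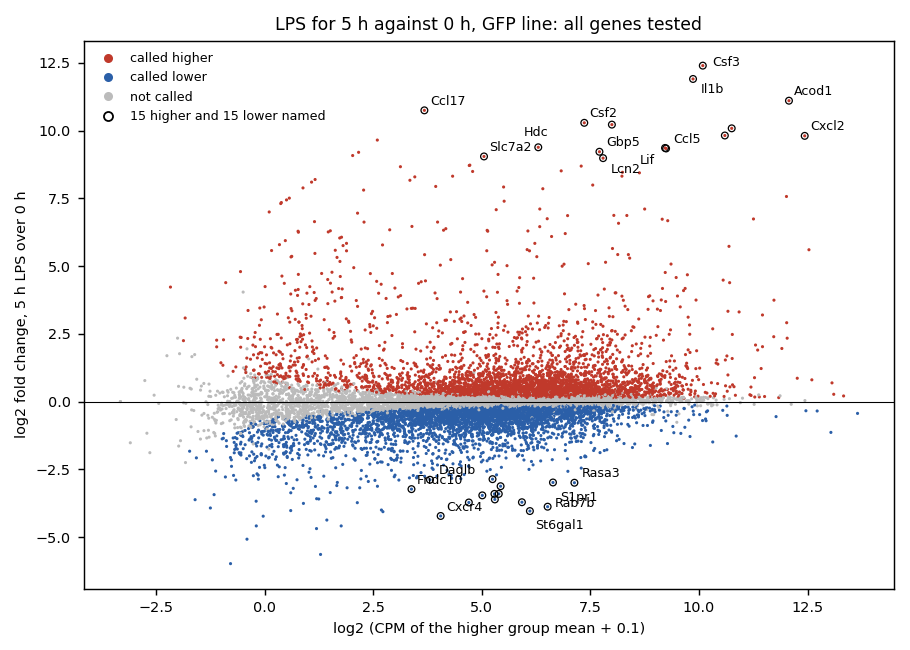
Log2 fold change of 5 h of LPS over 0 h in the GFP line (vertical axis) against the log2 CPM of the higher group mean (horizontal axis), 1 point for each of the 12213 genes tested, coloured by call at an adjusted p under 0.05. Circles mark the 15 risen and 15 fallen genes of largest change at 10 CPM or more, some with their names, and the rises reach 12.39 (Csf3) while the circled falls end at -4.22 (Cxcr4). The position of Ccl17, which had no counts at 0 h, depends on the prior count of the fit.

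Secreted inflammatory cytokines were among the most raised genes. Of 27 cytokine genes, 24 were tested and all 24 rose, 21 of them by at least 1 on the log2 scale, against 30.6% of all genes. Their median log2 fold change was 5.97 (5.32 with the 2 genes at 0 counts before LPS set to their lower bound), against -0.02 over all genes tested. Of the 24, 20 were also above their 1 h level. Some of the 24, such as Il12b with 2 counts over the 0 h libraries, passed the filter through their level after LPS. These could only rise.

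Tnf, the first-wave cytokine that signals through Tnfr1 and Tnfr2 (NM_013693, chromosome 17, 35199367 to 35202007, GRCm38), stood at 20.9, 27.7, 19.2 and 19.97 CPM in the 0 h libraries and at 4095, 4078, 4197 and 4186 CPM in the 5 h libraries. The groups did not overlap, and the log2 fold change was 7.57 (SE 0.194, edgeR adjusted p = 1.12e-19). Il1b, whose precursor is cleaved by caspase-1 (NM_008361, chromosome 2, 129364569 to 129371164), was at 0.253, 0.547, 0.126 and 0.136 CPM before LPS and at 913, 919, 955 and 939 CPM after it. Every 0 h library was below 1 CPM and far below every 5 h library, and the log2 fold change was 11.90 (SE 0.298, edgeR adjusted p = 1e-19). Its neighbour Il1a, which acts as an alarmin (NM_010554, chromosome 2, 129299609 to 129310186), was at 1.18, 2.87, 1.77 and 1.13 CPM at 0 h, highest in replicate 2, and at 1478, 1550.0, 1613 and 1550.4 CPM at 5 h (log2 fold change 9.82, SE 0.202). Il6, the cytokine of the acute phase response (NM_031168, chromosome 5, 30013114 to 30019975), was at 0.0844, 0.0684, 0.0842 and 0.0452 CPM at 0 h and at 23.1, 27.6, 27.3 and 32.1 CPM at 5 h. Its log2 fold change was 8.49 (SE 0.579, edgeR adjusted p = 2.14e-11).

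Genes of the colony stimulating factors, which drive the growth and survival of myeloid cells, rose as well. Csf3, the granulocyte factor (NM_009971, chromosome 11, 98700183 to 98703631), was at 0, 0.889, 0.0421 and 0 CPM at 0 h and at 1072, 1063, 1131 and 1089 CPM at 5 h. Its 0 h level rested almost wholly on replicate 2, so that the log2 fold change of 12.39 (SE 1.04, edgeR adjusted p = 3.46e-09) became 15.43 without that library. Csf2, the granulocyte and macrophage factor, was at 0, 0.137, 0 and 0.316 CPM before and 158, 165, 161 and 172 CPM after LPS. Its log2 fold change of 10.28 became 11.76 without 0 h replicate 4. For Csf3 and Csf2 the values after omission rest on few counts at 0 h and depend on the prior count of the fit. Csf1, the macrophage factor, rose from 5.49, 5.06, 4.42 and 5.69 CPM to 237, 274, 251 and 267 CPM (5.65 on the log2 scale, SE 0.145). Among relatives of Il6, Lif rose from 0.759, 1.37, 0.842 and 0.723 CPM to 617, 580.4, 616 and 570.2 CPM (9.36 on the log2 scale) and Il27, the subunit that pairs with Ebi3, from 3.71, 2.80, 3.83 and 3.93 CPM to 108, 116, 123 and 114 CPM (4.99). In all 5 of these genes every 5 h library lay above every 0 h library. The rule for the 15 largest rises, which include Csf3, Csf2 and Lif, required this.

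Il12b, Ifnb1 and Il10, cytokines of the textbook macrophage response, had few or no counts before LPS. Il12b, the p40 subunit of interleukin 12, had 2 counts over the 0 h libraries and 211 over the 5 h libraries, a ratio of CPM of 101 (95% exact counting interval from 27.5 to 837), and reached 1.79, 3.43, 2.82 and 2.97 CPM. Ifnb1, interferon beta, had 0 counts in all 4 libraries at 0 h, which allows up to 0.0449 CPM (3 counts over the group), 0, 5, 1 and 3 counts at 1 h and 2, 4, 4 and 1 counts at 5 h. Il10, the anti-inflammatory cytokine, had 0 counts in all 4 libraries at 0 h and 2, 1, 3 and 0 counts at 5 h. Neither Ifnb1 nor Il10 passed the filter, so neither was tested, and intervals here and below cover counting error only.

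Chemokines, which recruit leukocytes, rose nearly as one group. Of 22 genes 17 were tested, 16 rose and none fell, with a median log2 fold change of 6.95 (6.74 with Ccl17 and Cxcl3, both at 0 counts before LPS, set to their lower bounds). The exception was Cxcl14 (-1.44, edgeR adjusted p = 0.0934), which was called lower without 0 h replicate 1. Of the 17, 15 were above their 1 h level and none below it. Members with almost no counts before LPS, such as Ccl17 and Cxcl3, could only rise.

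Cxcl2, a ligand of Cxcr2 on neutrophils, was at 4.05, 10.5, 5.01 and 5.42 CPM at 0 h and 5449.9, 5457, 5581 and 5665 CPM at 5 h. Replicate 2 was the highest of the 0 h libraries, and the log2 fold change was 9.80 (SE 0.208, edgeR adjusted p = 1.9e-21). Cxcl10, a ligand of Cxcr3 that interferons induce, was at 0.253, 0.274, 0.547 and 0.316 CPM before LPS and 154, 164, 157 and 150.4 CPM at 5 h (8.69 on the log2 scale, SE 0.385). Ccl2, the ligand of Ccr2 on monocytes, went from 17.4, 24.6, 24.8 and 24.3 CPM to 2372, 2482, 2578 and 2346 CPM, with replicate 1 the lowest at 0 h (6.74 on the log2 scale, SE 0.535, edgeR adjusted p = 1.3e-09). Ccl5, which attracts T cells and monocytes, went from 1.18, 1.03, 1.01 and 0.632 CPM to 565, 634, 615 and 608 CPM (9.34, SE 0.222). Groups did not overlap in any of these 4 genes.

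The ligands of Ccr4, a receptor of T cells, lie close together on chromosome 8, and both came up from almost no signal. Ccl22 (94745684 to 94751388) was at 0, 0.274, 0.210 and 0.271 CPM at 0 h and at 248, 260.0, 275 and 238 CPM at 5 h (10.22 on the log2 scale, SE 0.156). Ccl17 (94809380 to 94812038) had no counts in any library at 0 h or 1 h and was at 12.8, 13.4, 12.5 and 12.02 CPM at 5 h. Against a floor of 3 counts over the 0 h group, it was at least 308-fold higher. Ccl4 rose from 21.5, 21.5, 22.2 and 22.7 CPM to 592, 594, 617 and 588 CPM, with the caveat that reads of Ccl3 and Ccl4, which are related in sequence, could be divided between them.

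**Figure D2:**
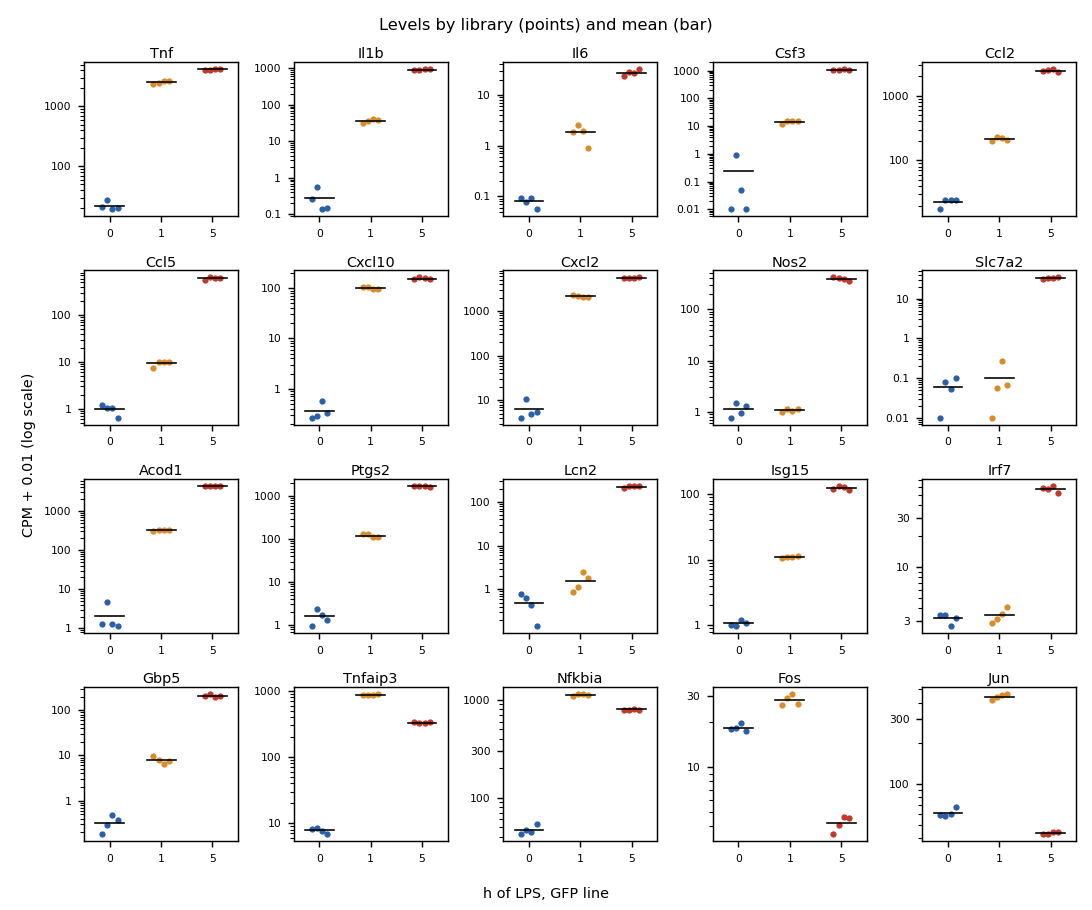
CPM plus 0.01 on a log scale (vertical axis, its own range in each panel) by hours of LPS in the GFP line (horizontal axis) for 20 genes of the response. Points are libraries, 4 at each time, and bars are group means. All 5 h points lie above all 0 h points except for Fos and Jun, where they lie below them, and Tnfaip3 and Nfkbia peak at 1 h.

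Promoters of some strongly raised genes that held motif matches are shown for the sites that LPS-activated factors are known to bind. The sequences are the 250 bases before the annotated start from the RefSeq table of GRCm38.p6, written 5′ to 3′ along the gene's strand, with motif matches in capitals. The motifs were GGGNN directly followed by TTTCC for NF-kB, GAAANN directly followed by GAAA for the interferon-stimulated response element (ISRE) and TGANTCA for AP-1, each searched on both strands. Promoters were found for 140 of the 189 genes that the naming rule gave. A match describes these letters and is not evidence of binding. Lack of a match does not show that a site is absent, since sites that differ from these letters were not searched. The first 3 are a chemokine gene with tandem NF-kB matches 97 and 78 bases before its start, a cytokine gene with an NF-kB and an AP-1 match at 44 and 249 bases, and an interferon-induced chemokine gene with an ISRE and an AP-1 match at 213 and 74 bases. They lie at chr5:90903649-90903898 (plus strand), chr5:30012864-30013113 (plus strand) and chr5:92348890-92349139 (minus strand).
Cxcl2: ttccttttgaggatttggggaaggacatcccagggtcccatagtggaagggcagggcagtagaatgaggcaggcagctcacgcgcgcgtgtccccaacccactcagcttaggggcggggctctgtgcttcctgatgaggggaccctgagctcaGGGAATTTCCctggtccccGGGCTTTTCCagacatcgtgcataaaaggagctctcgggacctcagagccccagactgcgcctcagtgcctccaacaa
Il6: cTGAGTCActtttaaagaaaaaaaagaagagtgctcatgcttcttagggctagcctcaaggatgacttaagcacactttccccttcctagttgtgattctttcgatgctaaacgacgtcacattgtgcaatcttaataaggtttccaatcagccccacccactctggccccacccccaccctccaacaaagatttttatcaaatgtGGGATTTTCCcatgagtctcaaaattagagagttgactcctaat
Cxcl10: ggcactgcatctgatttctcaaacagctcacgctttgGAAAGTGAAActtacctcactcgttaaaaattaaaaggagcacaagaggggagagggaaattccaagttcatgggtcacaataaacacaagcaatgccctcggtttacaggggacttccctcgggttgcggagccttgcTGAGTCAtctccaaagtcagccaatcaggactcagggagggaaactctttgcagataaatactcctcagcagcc

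Matches were counted over every tested gene with a promoter in the table, and for gene lists over all members with a promoter, tested or not. The NF-kB letters stood in 1.41% of 9719 promoters of tested genes, in 3.54% of the 790 promoters of genes that rose by at least 1 on the log2 scale, in 8.93% of the 112 of genes that rose by at least 4, and in 0.814% of the 737 of genes that fell by at least 1. For the AP-1 letters the shares were 4.32%, 7.22%, 17.0% and 4.21% in the same order. Over all 27025 promoters of the table the shares were 1.40% for NF-kB and 6.87% for AP-1. Among the chemokines 4 of 14 promoters held the NF-kB letters. Only promoters with a match are printed in this report. In the same bases, no match to the NF-kB, ISRE or AP-1 letters was found for Tnf, Il1b, Il12b, Acod1, Ptgs2, Csf2, Ccl17, Ccl22, Hdc, Lcn2 or Irf7. Il1a and Lif held an AP-1 match, and the fallen gene Cytip an ISRE match.

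NF-kB subunits, their feedback inhibitors and related genes of the pathway, many of them targets of NF-kB itself, rose in 22 of 26 tested genes. The deubiquitinase gene Cyld was the 1 that fell (-0.21, with overlapping groups, and not called without 0 h replicate 4 or without 5 h replicate 1, 3 or 4). The median log2 fold change was 2.02. Unlike the cytokines, this list was divided against its 1 h levels, with 12 genes above and 7 below them at 5 h, and 6 of 22 promoters held the NF-kB letters. Tnfaip3, which encodes the ubiquitin-editing enzyme A20, was at 8.27, 8.55, 7.66 and 6.73 CPM at 0 h, 876 ± 12.6 CPM at 1 h and 338, 332, 324 and 334 CPM at 5 h. It was thus 5.42 above 0 h on the log2 scale (edgeR adjusted p = 4.26e-26), with a log2 fold change against 1 h of -1.40. Nfkbiz, an atypical IkB protein needed for secondary genes such as Il6, was likewise above 0 h and below 1 h (6.73 and -1.27 on the log2 scale), at 4.39, 6.91, 5.18 and 5.01 CPM before LPS and 560.3, 579, 563 and 577 CPM at 5 h. Nfkbia, the classical inhibitor IkB alpha, went from 42.2, 46.4, 44.5 and 54.0 CPM to 796, 799, 818 and 791 CPM (4.09 on the log2 scale). Traf1, an adaptor of Tnf receptors, was at 0.506, 0.821, 1.18 and 0.994 CPM at 0 h and 290.4, 301, 308 and 298 CPM at 5 h, 8.32 above 0 h and 1.44 above 1 h. The subunit genes Nfkb1, Nfkb2 and Relb rose by 3.11, 3.40 and 2.35, and Rela by 0.81.

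Brakes on MAP kinases and cytokine signals were raised in 19 of 27 tested genes and lowered in 3 (median log2 fold change 0.98). Socs3, which blocks Jak signalling below the Il6 receptor, was at 7.004, 7.11, 6.10 and 6.19 CPM at 0 h and 242, 225, 228 and 226 CPM at 5 h, a log2 fold change of 5.14 (SE 0.0849). Zc3h12a, the RNase Regnase-1 that degrades cytokine mRNAs, rose from 5.15, 8.89, 6.06 and 6.05 CPM to 285, 283, 287 and 266 CPM (5.42). Dusp16, a phosphatase of Jnk, rose by 2.18, from 32.5 ± 2.52 to 147 ± 0.751 CPM. Rgs2, which accelerates the GTPase of G proteins, went the other way, from 116, 126, 126 and 138 CPM to 19.7, 21.0, 21.5 and 22.8 CPM, and fell by 2.57 on the log2 scale (edgeR adjusted p = 8.82e-21).

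Genes of AP-1 and of the immediate early class were mostly below their 1 h level, though many remained above 0 h. Of 28 tested, 20 were above and 6 below their 0 h level at 5 h (median log2 fold change 0.80), and 19 were below their 1 h level, with 7 above it. Fos was at 17.8, 18.1, 19.7 and 17.3 CPM at 0 h, 27.9 ± 2.27 CPM at 1 h and 3.52, 4.09, 4.59 and 4.53 CPM at 5 h. Every 5 h library was below every 0 h library, and the log2 fold change was -2.12 (SE 0.120, edgeR adjusted p = 3.68e-14). Jun was at 58.6, 58.4, 60.1 and 67.7 CPM at 0 h, 443 ± 20.7 CPM at 1 h and 42.6, 42.4, 44.1 and 44.3 CPM at 5 h (-0.50 against 0 h, edgeR adjusted p = 0.00336). Fosb, another Fos relative, was at 0.690 ± 0.238, 13.1 ± 1.55 and 0.243 ± 0.135 CPM at 0, 1 and 5 h, with log2 fold changes at 5 h of -1.37 against 0 h and -5.62 against 1 h. Nr4a1, which encodes Nur77, was at 3.12, 2.53, 3.24 and 3.39 CPM at 0 h, 61.8 ± 6.69 CPM at 1 h and 3.13, 3.16, 3.09 and 2.15 CPM at 5 h. The 0 h and 5 h groups overlapped and no difference was called (-0.08, SE 0.386, edgeR adjusted p = 0.867).

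Other factors of this list were still raised at 5 h. Myc, a driver of growth, was at 1.10, 1.30, 1.01 and 1.72 CPM at 0 h and 71.2, 77.8, 75.7 and 73.3 CPM at 5 h (5.84 on the log2 scale). Maff, a small Maf protein, rose from 3.32 ± 0.815 to 56.1 ± 3.42 CPM (4.08) and Egr2, a zinc finger factor, from 2.24 ± 0.487 to 18.1 ± 0.896 CPM (3.004), both below their 1 h means of 79.6 ± 1.39 and 157 ± 3.88 CPM. Nr4a3, a relative of Nur77 that lies outside the naming rule and was picked after its values were seen, rose by 6.32.

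Antiviral genes that interferons induce rose without exception in this list. All 46 tested members were called higher than at 0 h, 44 by at least 1 on the log2 scale, and all 46 were called higher than at 1 h (27.5% of all genes were). The median log2 fold change was 2.69. Isg15, a ubiquitin-like modifier (NM_015783, chromosome 4, 156199424 to 156200818), was at 1.01, 0.958, 1.18 and 1.08 CPM at 0 h, 11.04 ± 0.245 CPM at 1 h and 120.0, 135, 130.1 and 118 CPM at 5 h, a log2 fold change over 0 h of 6.86 (SE 0.173, edgeR adjusted p = 2.34e-21). Ifih1, the double-stranded RNA sensor Mda5, went from 17.8, 18.7, 21.6 and 19.4 CPM to 663, 677, 643 and 638 CPM (5.07). Oasl1, of the oligoadenylate synthetase family, went from 2.45, 2.94, 2.78 and 2.85 CPM to 309, 338, 336 and 312 CPM (6.86). Rtp4, a chaperone of receptor transport, rose by 6.45 and Trim30a, a ubiquitin ligase, by 2.73. Members with near-identical copies, such as Ifit3 and Ifit3b or Oas1a and Oas1g, are uncertain, since their reads could be divided.

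Factors of interferon signalling mostly rose too. Of 21 tested genes, 17 rose and 2 fell (Irf2, -0.50, and Ifngr1, -0.36). Irf7, the amplifier of interferon production (NM_016850, chromosome 7, 141263183 to 141266499), was at 3.38, 3.42, 2.65 and 3.21 CPM at 0 h, 3.37 ± 0.513 CPM at 1 h and 58.9, 57.9, 61.7 and 52.2 CPM at 5 h (4.21 over 0 h on the log2 scale, SE 0.170). Stat5a rose by 1.93, from 21.2 ± 2.93 to 81.0 ± 3.598 CPM, and the kinase Jak2 by 3.05, from 47.4 ± 1.74 to 391.6 ± 10.2 CPM. Irf1 rose by 2.96 over 0 h and was below its 1 h level (-0.95).

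Guanylate-binding proteins and immunity-related GTPases, which attack the vacuoles of intracellular microbes, rose in 14 of 15 tested genes (median log2 fold change 3.80), and Gbp8 fell (-0.75). The same 14 were above their 1 h level and Gbp8 below it. Gbp5 (NM_153564, chromosome 3, 142496934 to 142522344) was at 0.169, 0.274, 0.463 and 0.361 CPM at 0 h and 204, 228, 202 and 203 CPM at 5 h, highest in replicate 2, with a log2 fold change of 9.22 (SE 0.345). Gbp2 went from 0.338, 0.410, 0.505 and 0.181 CPM to 76.3, 89.3, 88.5 and 84.4 CPM (7.85) and Gbp3 from 0.591, 0.410, 0.631 and 0.632 CPM to 74.2, 85.3, 81.7 and 81.3 CPM (7.10). Irgm1 and Irgm2 rose by 2.08 and 2.69. Reads of Gbp genes, several of which share much of their sequence, could be divided between copies.

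The promoters of Isg15 and Gbp5, which interferons are known to act on, are shown for their ISRE letters. Isg15 holds 3 overlapping matches that begin 78, 72 and 66 bases before its start, and Gbp5 an ISRE match at 165 bases and an NF-kB match at 77 bases, both on the opposite strand. They lie at chr4:156200819-156201068 (minus strand) and chr3:142496684-142496933 (plus strand).
Isg15: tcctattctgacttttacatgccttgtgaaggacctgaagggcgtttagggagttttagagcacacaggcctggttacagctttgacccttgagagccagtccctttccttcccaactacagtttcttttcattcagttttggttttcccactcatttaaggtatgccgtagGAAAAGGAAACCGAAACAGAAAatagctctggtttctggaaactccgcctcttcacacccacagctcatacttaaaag
Gbp5: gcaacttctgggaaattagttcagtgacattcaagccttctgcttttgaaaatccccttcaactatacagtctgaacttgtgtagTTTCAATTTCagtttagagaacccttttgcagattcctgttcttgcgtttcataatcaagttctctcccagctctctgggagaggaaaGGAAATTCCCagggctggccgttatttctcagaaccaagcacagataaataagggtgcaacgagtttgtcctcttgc
The ISRE letters stood in 2.85% of the 9719 promoters of tested genes and 3.04% of all 27025 promoters. They stood in 9 of 9 promoters of the Gbp and GTPase list, in 13 of 35 of the antiviral list, in 8.10% of the 790 promoters of genes that rose by at least 1 and in 20.5% of the 112 of genes that rose by at least 4. In the 737 promoters of genes that fell by at least 1 the share was 2.31%.

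Enzymes that make small effector molecules were among the most raised genes. Nos2, the inducible nitric oxide synthase (NM_010927, chromosome 11, 78920787 to 78960226), was at 0.759, 1.505, 0.926 and 1.31 CPM at 0 h, 1.07 ± 0.0667 CPM at 1 h and 418, 416, 397 and 352 CPM at 5 h. The 5 h libraries were 8.44 above 0 h on the log2 scale (SE 0.218, edgeR adjusted p = 5.68e-20), and 10 of 13 tested genes of nitric oxide and arginine use rose. Among them, Slc7a2, a carrier of arginine, was at 0, 0.0684, 0.0421 and 0.0904 CPM at 0 h and 31.6, 32.9, 33.5 and 34.2 CPM at 5 h (9.04). Gch1, which makes a cofactor of nitric oxide synthase, rose by 1.69, and Arg2, a mitochondrial arginase, by 2.11. Acod1, which makes itaconate from a citric acid cycle intermediate (NM_008392, chromosome 14, 103047012 to 103056573), was at 1.27, 4.65, 1.26 and 1.13 CPM at 0 h and 4341, 4244, 4401 and 4242 CPM at 5 h. Its log2 fold change was 11.10 (SE 0.259, edgeR adjusted p = 4.27e-20) and 11.78 without 0 h replicate 2, the library with the high value.

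Prostaglandin and leukotriene genes parted. Ptgs2, the inducible cyclooxygenase, was at 0.928, 2.33, 1.73 and 1.31 CPM at 0 h and 1757, 1733, 1737 and 1680.5 CPM at 5 h (10.08 on the log2 scale, SE 0.413), and Ptges, the synthase that makes prostaglandin E from its product, went from 2.03, 1.37, 1.81 and 2.26 CPM to 79.3, 75.1, 81.0 and 72.1 CPM (5.34). Alox5, the first enzyme of leukotriene synthesis, was lower, at 109, 104, 108 and 90.1 CPM before and 50.2, 57.1, 52.4 and 53.1 CPM after LPS (-0.95, SE 0.0613, edgeR adjusted p = 6.43e-13), and its partner Alox5ap fell by 0.83. In the list of both pathways 6 of 12 tested genes rose (50.0%) and 5 fell (41.7%), against 30.6% and 31.9% of all genes. The constitutive cyclooxygenase Ptgs1, outside the naming rule and picked after its value was seen, was among the 5 that fell (-1.25).

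Other effector and acute phase genes rose in 27 of 31 tested (median log2 fold change 2.90), and 1 fell. Hdc, which makes histamine, was at 0.253, 0, 0.0842 and 0.136 CPM at 0 h and 78.1, 77.9, 81.9 and 76.9 CPM at 5 h (9.38). Lcn2, which binds bacterial siderophores, was at 0.759, 0.616, 0.421 and 0.136 CPM at 0 h and 204, 227, 224 and 231 CPM at 5 h (8.98, SE 1.02). Groups did not overlap in either gene. The acute phase gene Saa3 rose by 7.10, to 430.4 ± 27.0 CPM, and the mitochondrial superoxide dismutase gene Sod2 by 2.48, to 637 ± 11.97 CPM. Clec4e, the receptor Mincle for mycobacterial glycolipid, was already at 226 to 273 CPM before LPS and at 3352 to 3444 CPM after it (3.74).

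The sensing chain itself changed in both directions. Of 28 tested Toll-like receptor and signalling genes 20 rose and 3 fell (5 fell without 0 h replicate 4). Tlr4 was not called (0.25, edgeR adjusted p = 0.0654), whereas Tlr1, which pairs with Tlr2, rose from 7.004, 8.82, 8.92 and 7.86 CPM to 51.2, 47.2, 47.9 and 47.6 CPM (2.56) and Tlr8 fell by 2.85, the last chosen after its value was seen. The kinase genes Irak2, Map3k8 and Ikbke rose by 2.46, 3.04 and 3.90. Of the inflammasome list, 6 of 14 tested genes rose (42.9%) and 5 fell (35.7%), against 30.6% and 31.9% of all genes. Nlrp3, its best known sensor, was at 49.5, 41.9, 49.8 and 40.9 CPM at 0 h and 809, 845, 816 and 816 CPM at 5 h (4.17), Casp4, which senses LPS in the cytosol, rose by 2.69 and Casp1 by 0.64, and Nlrp10 fell by 1.72.

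Receptors for chemokines and purines rose in 8 of 17 tested genes (47.1%) and fell in 4 (23.5%), against 30.6% and 31.9% of all genes. Gpr84, a receptor of medium-chain fatty acids, was at 12.8, 13.5, 12.4 and 12.2 CPM at 0 h and 223, 229, 226 and 226 CPM at 5 h (4.15), and C5ar1, the receptor of complement C5a, rose by 2.30. Adora2a, an adenosine receptor, had 2 counts over the 0 h libraries and 846 over the 5 h libraries, a ratio of CPM of 404 (95% exact counting interval from 111 to 3339). Cxcr4, the receptor of Cxcl12, had the largest fall among genes at 10 CPM or more in the higher group whose groups did not overlap. It was at 16.3, 16.8, 16.0 and 16.8 CPM at 0 h, 6.54 ± 0.694 CPM at 1 h and 1.12, 0.579, 0.864 and 1.04 CPM at 5 h. Every 5 h library lay below every 0 h library, and the log2 fold change was -4.22 (SE 0.191, edgeR adjusted p = 4e-16).

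Genes by which macrophages meet T cells were raised. Costimulation and class II genes rose in 12 of 13 tested (median log2 fold change 2.89), and H2-DMa fell (-0.62, with overlapping groups, and not called without 5 h replicate 4), while H2-Aa, H2-Ab1, H2-Eb1 and Ciita did not pass the filter. Cd40, the receptor of the T cell ligand Cd40l, was at 2.11, 2.67, 2.23 and 2.03 CPM at 0 h and 253, 277, 269 and 253 CPM at 5 h (6.87, SE 0.155). Icam1, a ligand of leukocyte integrins, rose from 69.5, 68.5, 70.0 and 62.1 CPM to 731, 805, 764 and 739 CPM (3.49), Tnfrsf9 (4-1BB) by 2.89 and the hyaluronan receptor gene Cd44 by 2.02. Class I presentation and the immunoproteasome moved less: 17 of 21 tested genes rose and none fell, with a median of 0.47, though 1 was called lower without 0 h replicate 2 and without 0 h replicate 3. Tapbp, the chaperone tapasin, went from 139.7, 139.9, 140.5 and 145 CPM to 316, 335, 315 and 318 CPM (1.18), and Nlrc5, the transactivator of class I genes, rose by 1.02. The constitutive proteasome rose in 15 of 26 genes, led by Psma6 (0.97). Reads of related H2 genes could be divided between copies.

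Regulators of cell death were mixed, with 11 of 23 tested genes higher (47.8%) and 6 lower (26.1%), against 30.6% and 31.9% of all genes. Among those higher were inhibitors of death, Cflar (105, 101, 102 and 109 CPM at 0 h, 665, 669.6, 621 and 645 CPM at 5 h, 2.64 on the log2 scale) and Bcl2a1d (3.87, with near-identical copies that could share its reads). The death receptor gene Fas also rose, from 2.45, 2.26, 2.48 and 2.58 CPM to 56.3, 60.6, 57.6 and 59.4 CPM (4.57), as did Tnfrsf1b, the second Tnf receptor, from 81.5, 82.0, 82.6 and 73.7 CPM to 1628, 1711, 1680.2 and 1665 CPM (4.39, SE 0.0702). Bmf, a BH3-only inducer of death picked after its value was seen, fell by 4.59, from 3.29 ± 0.671 to 0.131 ± 0.0672 CPM.

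**Figure D3:**
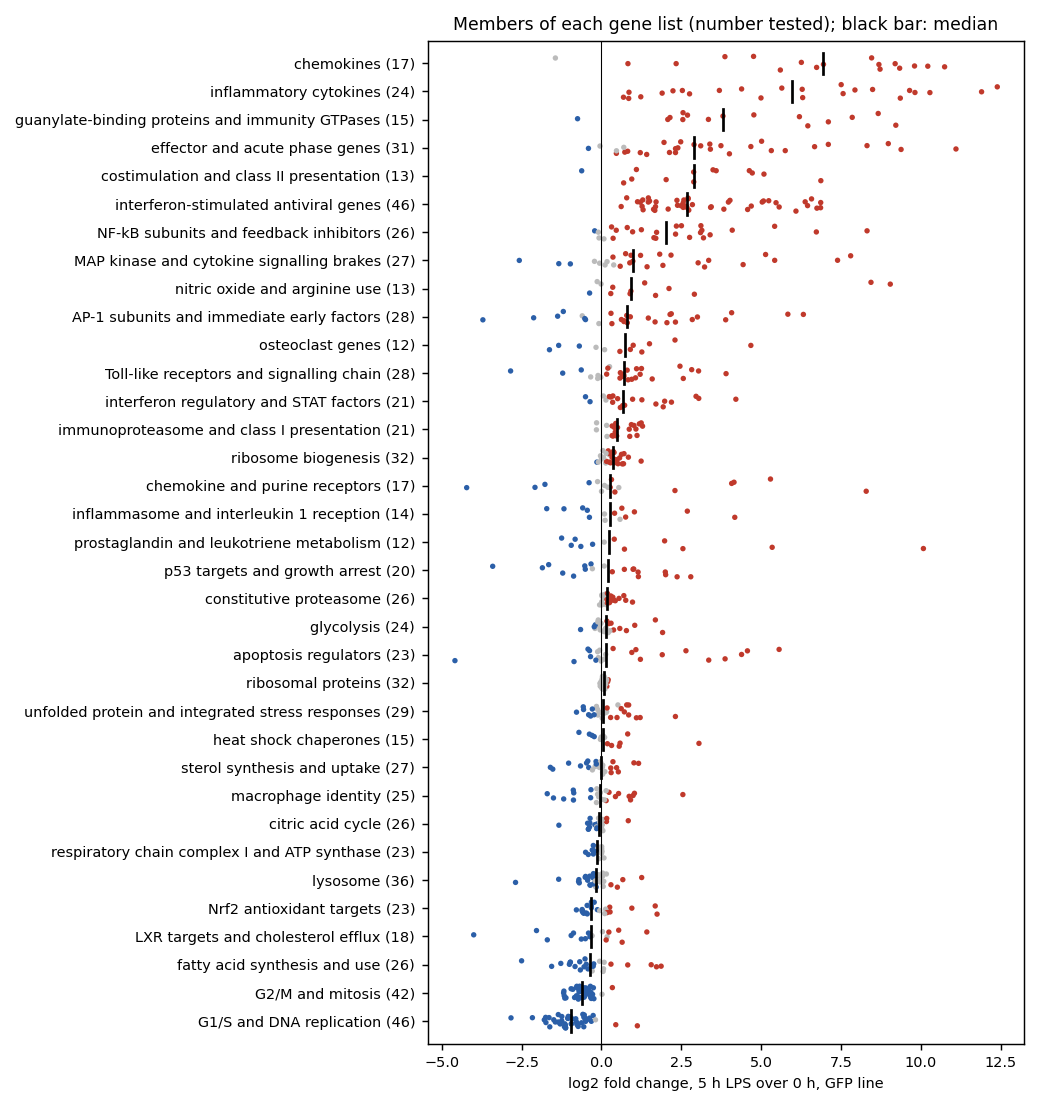
Log2 fold changes of 5 h of LPS over 0 h in the GFP line (horizontal axis) for the tested members of each gene list (vertical axis). Points are genes, red for called higher, blue for called lower and grey for not called, and black bars are medians. The cytokine, chemokine, antiviral and Gbp lists lie almost wholly to the right of 0 and both cell cycle lists almost wholly to the left.

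Genes of the cell cycle fell as a group. Of 46 genes of G1/S and DNA replication, all tested, 43 were lower and 2 higher at 5 h (median log2 fold change -0.96), against 31.9% lower over all genes. Of 42 genes of G2/M and mitosis, 40 were lower and 1 higher (median -0.60). At 5 h 44 of the first list and 40 of the second were below their 1 h level. Cdc6, which loads the replicative helicase, was at 31.7, 32.6, 33.0 and 32.6 CPM at 0 h, 21.8 ± 0.651 CPM at 1 h and 6.93, 7.70, 7.60 and 6.61 CPM at 5 h (-2.16, SE 0.102, edgeR adjusted p = 9.5e-16). Ung, the uracil-DNA glycosylase, was at 19.6, 19.6, 20.7 and 18.8 CPM at 0 h and 2.79, 2.67, 3.14 and 2.30 CPM at 5 h (-2.83). Ccne1, cyclin E1, fell from 43.9, 40.7, 46.4 and 44.1 CPM to 13.6, 10.99, 12.1 and 14.3 CPM (-1.79). The licensing inhibitor gene Gmnn fell by 1.74 and the helicase subunit genes Mcm2 and Mcm6 by 1.35 and 1.30.

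The median fall of mitotic genes was smaller. Mybl2, a partner of the complex that drives mitotic genes, was at 59.999, 46.9, 53.9 and 52.5 CPM at 0 h and 23.2, 23.1, 21.97 and 25.6 CPM at 5 h (-1.19). Foxm1, the mitotic transcription factor, went from 107, 95.001, 105 and 87.8 CPM to 42.0, 46.9, 41.0 and 45.4 CPM (-1.17), and Cdc25b, an activator of Cdk1, and Kif20a, a kinesin of cytokinesis, fell by 1.11 and 0.90. The exceptions to the fall, named after their values were seen, were Cdk6 (1.12), Ccnd2 (0.45) and Plk4 (0.34), which were higher, and Orc1 and Bub1, which were not called. E2F letters (TTTCCCGC or TTTGGCGC) stood in 7 of 36 promoters of the G1/S list and in none of 34 of the G2/M list, against 2.74% of the promoters of tested genes. Of p53 targets and growth arrest genes, 10 of 20 tested were higher (50.0%) and 8 lower (40.0%), against 30.6% and 31.9% of all genes. Cdkn1a, the inhibitor p21, rose from 285, 271, 272 and 285 CPM to 555, 563, 584 and 538 CPM (1.01) and Mdm2, which degrades p53, by 0.99, while Sesn1 fell by 1.85.

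The largest falls by the naming rule concerned, beside Cxcr4, genes of varied function. St6gal1, a sialyltransferase (NM_145933, chromosome 16, 23224729 to 23360350), was at 65.2, 71.1, 75.3 and 63.8 CPM at 0 h, 74.5 ± 2.58 CPM at 1 h and 3.97, 5.12, 3.82 and 3.64 CPM at 5 h (-4.04, SE 0.384, edgeR adjusted p = 1.31e-08). Rab7b, a small GTPase of late endosomes known to promote the degradation of Tlr4 (NM_145509, chromosome 1, 131688681 to 131715443), went from 94.6, 95.6, 99.96 and 75.4 CPM to 5.70, 6.72, 6.32 and 5.94 CPM (-3.88). Angptl2, a secreted angiopoietin-like protein, went from 26.7, 26.1, 26.4 and 24.4 CPM to 2.12, 2.09, 1.73 and 1.86 CPM (-3.72). In these 3 genes every 5 h library was below 10 CPM and every 0 h library above 20 CPM.

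Trp53inp1, a stress-induced p53 partner, fell from 34.8, 43.8, 38.6 and 50.1 CPM to 4.86, 3.605, 3.32 and 4.16 CPM (-3.41). Dkk2, a secreted Wnt antagonist, fell from 33.1, 29.1, 29.2 and 37.2 CPM to 2.40, 2.98, 2.82 and 3.56 CPM (-3.46). S1pr1, the receptor of sphingosine 1-phosphate, fell from 88.6, 105, 98.2 and 106 CPM to 12.6, 12.7, 12.3 and 12.7 CPM (-2.99, SE 0.243). The 5 h libraries of S1pr1 differed by less than 1 CPM among themselves. Cytip, which binds cytohesins (-3.61), Abcd2, a peroxisomal fatty acid carrier (-3.41), Fndc10 (-3.23), Aph1c, a gamma-secretase subunit (-3.12), Rasa3, a Ras GTPase activator (-2.995), Rhod, a small GTPase (-2.89), and Daglb, which makes the endocannabinoid 2-AG (-2.86), were also among the 15 lowest. All 15 were below their 1 h level too, and groups did not overlap in any, which the rule for naming them required against 0 h.

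**Figure D4:**
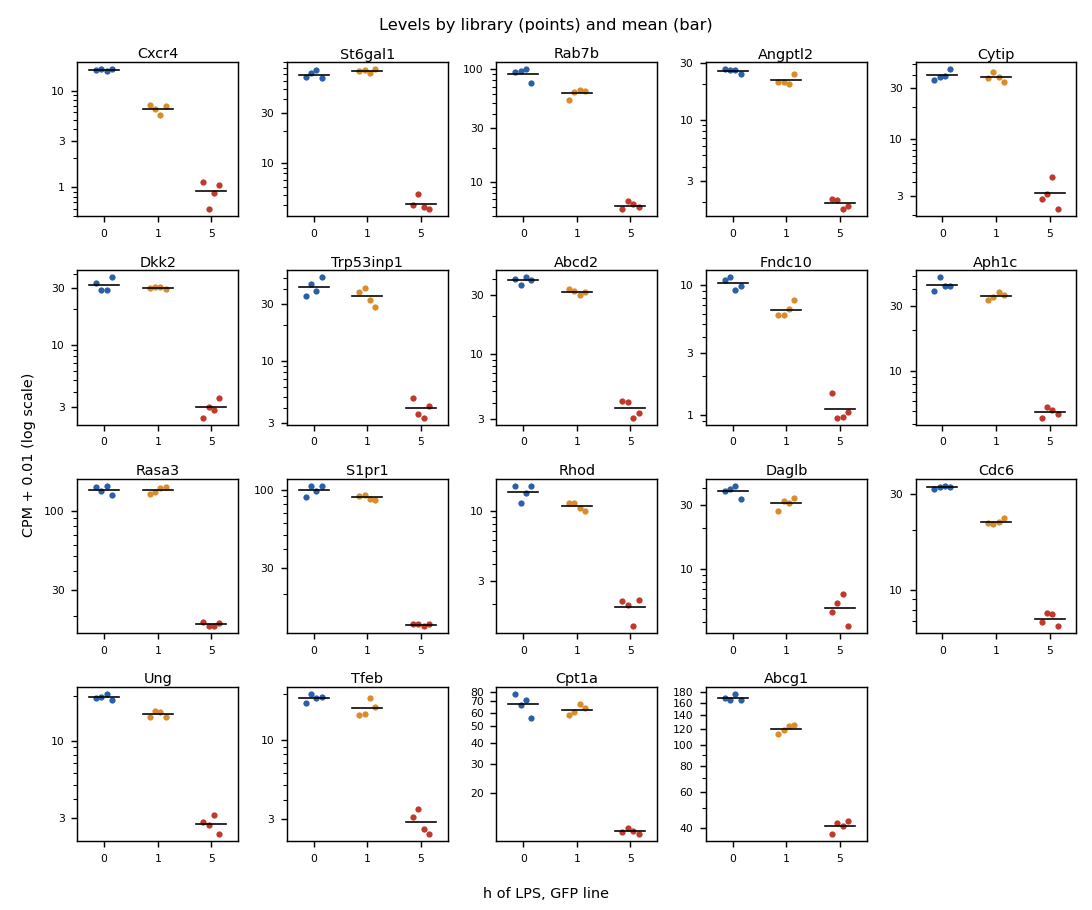
CPM plus 0.01 on a log scale (vertical axis, its own range in each panel) by hours of LPS in the GFP line (horizontal axis) for genes that fell. Points are libraries, 4 at each time, and bars are group means, and all 5 h points lie below all 0 h and 1 h points in each panel.

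Lipid and lysosome genes were more often lower than higher. Of 26 tested genes of fatty acid synthesis and use, 16 fell (61.5%) and 5 rose (19.2%), against 31.9% and 30.6% of all genes. Their median log2 fold change was -0.37. Cpt1a, which admits fatty acids to mitochondria, was at 77.3, 66.6, 71.7 and 55.9 CPM at 0 h and 11.8, 12.4, 12.01 and 11.4 CPM at 5 h (-2.50, SE 0.135, edgeR adjusted p = 3.47e-14). Scd2, a desaturase, went from 1888, 1719, 1943 and 1869 CPM to 774, 769, 777 and 748 CPM (-1.27). Acsl1, which activates fatty acids, and Hilpda, an inhibitor of lipolysis, rose, by 1.56 and 1.87. Of 18 tested targets of the sterol receptor LXR and genes of cholesterol efflux, 9 fell (50.0%) and 5 rose (27.8%). Abcg1, a cholesterol exporter, was at 168, 164, 176 and 165 CPM at 0 h and 37.4, 42.5, 41.0 and 43.3 CPM at 5 h (-2.04, SE 0.138), Nceh1, a cholesterol ester hydrolase, fell by 1.70, and Lpl, lipoprotein lipase, rose by 1.42.

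Genes of sterol synthesis and uptake lay near the shares of all genes (31.9% lower, 30.6% higher). Of 27 tested, 9 were lower (33.3%) and 7 higher (25.9%). Dhcr7, a late enzyme of cholesterol synthesis, fell by 1.53, from 48.2 ± 2.21 to 16.8 ± 1.02 CPM. Of 36 lysosome genes, all tested, 18 fell and 4 rose (median -0.18). Tfeb, the master regulator of lysosome genes (NM_001161722, chromosome 17, 47737037 to 47792416), was at 17.4, 19.9, 18.9 and 19.1 CPM at 0 h, 16.1 ± 2.03 CPM at 1 h and 3.07, 3.47, 2.59 and 2.37 CPM at 5 h (-2.69, SE 0.197). Its groups did not overlap. The proton pump subunit gene Atp6v0d2, the sialidase gene Neu1 and the galactosidase gene Gla fell by 1.34, 0.72 and 0.70.

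Energy metabolism moved little by comparison. Of 24 tested glycolysis genes 9 rose (37.5%) and 3 fell (12.5%), against 30.6% and 31.9% of all genes. Their median log2 fold change was 0.13. Slc2a1, the glucose carrier Glut1, rose from 206, 204, 203 and 208 CPM to 664, 658, 694 and 628 CPM (1.69, SE 0.0804), Slc2a6 by 1.91, Hk2, the first enzyme of the pathway, by 1.04 and Slc16a3, a lactate exporter, by 0.78. Fits of only the 8 libraries or of the 12 libraries of the GFP line called 5 genes of the list lower in place of 3. Of 26 citric acid cycle genes 11 fell (42.3%) and 3 rose (11.5%), against 31.9% and 30.6% of all genes. Idh1, the cytosolic isocitrate dehydrogenase, went from 159, 156, 163 and 169 CPM to 65.1, 65.1, 63.7 and 62.4 CPM (-1.33), whereas Dld, a shared subunit of dehydrogenase complexes, rose by 0.84. Of 23 genes of complex I and ATP synthase 11 fell and none rose, with small changes such as -0.50 for Ndufb10 and -0.41 for Ndufb3 on the log2 scale. Nrf2 targets fell in 14 of 23 tested genes and rose in 6, among them Gclc, which starts glutathione synthesis (-0.79), and Pgd of the pentose phosphate pathway (-0.59) on one side, and Sqstm1, the autophagy receptor p62 (1.68), and Txnrd1, a thioredoxin reductase (0.95), on the other.

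Macrophage identity genes did not move as one. Of 25 tested 9 rose (36.0%) and 8 fell (32.0%), near the shares of all genes (30.6% and 31.9%). The median log2 fold change was -0.03. Cebpa, a factor of myeloid differentiation, was at 24.4, 21.0, 22.6 and 20.8 CPM at 0 h and 6.15, 7.43, 7.05 and 6.53 CPM at 5 h (-1.70, SE 0.128), while its relative Cebpb, which LPS is known to induce, went from 57.1, 57.3, 54.7 and 59.3 CPM to 113, 123, 114 and 116 CPM (1.03, SE 0.0620). Groups did not overlap in either. The Fc receptor gene Fcgr3 fell by 1.504 and Cd300lb by 1.18. Csf1r, the receptor of Csf1, and Axl, a receptor of apoptotic cells, both picked after their values were seen, changed by -0.88 and 2.55. The complement genes C1qa, C1qb and C1qc and the receptor gene Mertk did not pass the filter.

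The 5 h libraries were also compared with the 1 h libraries of the same line, to place each late change in time. This comparison shares the 5 h libraries with the one above, so its values are given beside it and no overlap of the calls is tested. Of 12213 genes 6740 (55.2%) were called, 3361 (27.5%) higher and 3379 (27.7%) lower at 5 h. Among the 1027 genes higher than at 0 h by at least 1 on the log2 scale, 909 were above and 42 below their 1 h level and 76 were not called. Among the 948 lower by as much, 837 were below and 7 above it and 104 were not called.

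The genes with the largest rise between 1 h and 5 h included Nos2, Hdc and Slc7a2. Nos2 was 8.49 higher at 5 h than at 1 h on the log2 scale, Hdc 7.47 and Slc7a2 8.49, the last becoming 9.40 without 1 h replicate 3. Il33, an alarmin of the interleukin 1 family, was at 0, 0, 0.126 and 0.0452 CPM at 0 h, 0.124, 0.0455, 0 and 0 CPM at 1 h and 15.8, 16.5, 16.3 and 12.3 CPM at 5 h. Its log2 fold change over 1 h was 8.54, and 9.15 without 1 h replicate 1. That over 0 h was 7.94, and 9.08 without 0 h replicate 3. These values of Il33 rest on few counts before 5 h and depend on the prior count of the fit. Heatr9, a gene of unclear function beside Ccl5, had 2 counts over the 0 h libraries and 770 over the 5 h libraries, a ratio of CPM of 367 (95% exact counting interval from 101 to 3039). Both 0 h counts were in replicate 2, and its log2 fold change of 8.16 became 10.42 without that library, a fitted value that rests on the prior count since the other 0 h libraries were at 0.

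Others had 1 h levels well above both 0 h and 5 h. Arc, an immediate early gene best known from neurons, was at 1.43, 1.505, 1.35 and 1.17 CPM at 0 h, 14.1, 13.9, 17.8 and 15.01 CPM at 1 h and 0.559, 0.579, 0.318 and 0.668 CPM at 5 h, and fell by 4.86 from 1 h on the log2 scale (SE 0.209, edgeR adjusted p = 3.14e-16). The log2 fold change from 1 h was -3.35 for Jun, -2.74 for Fos and -4.40 for Nr4a1. At 5 h Tnf was 0.72 above its 1 h mean of 2518 ± 153 CPM, and Nlrp3, at 888 ± 18.5 CPM at 1 h, was not called (-0.11, edgeR adjusted p = 0.114).

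The response of the Nur77 line, whose cells received the same doxycycline and LPS, was set against that of the GFP line by the difference of the 5 h fold changes. Nr4a1 reads do not check that line's label, since no source used here gives the sequence of the construct. The difference was called for 970 genes (7.94%), more positive in the Nur77 line for 343 (2.81%) and more negative for 627 (5.13%). Of the 1027 genes that rose by at least 1 in the GFP line, the response was more negative in the Nur77 line for 189, more positive for 45 and not called different for 793. Of the 948 that fell by as much, it was more positive for 42, more negative for 63 and not called for 843. These counts are read from the same GFP line libraries that gave the rises and falls, and so share their errors. Without Nur77 line 1 h replicate 2 the difference was called for 1672 genes, and in a fit of only the 4 groups compared for 2084.

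Of the 26 genes in the NF-kB pathway list, 13 had a more negative response in the Nur77 line and none a more positive one. Traf1 was at 3.14, 3.43, 3.75 and 3.70 CPM at 0 h and 248, 273, 275 and 252 CPM at 5 h in the Nur77 line, above the GFP line at 0 h and below it at 5 h, a difference of the responses of -2.10 on the log2 scale (SE 0.182, edgeR adjusted p = 1.34e-08). Tnfaip3 and Nfkbia differed by -1.43 and -1.31. Ccl22, among the largest rises of the GFP line, stood at 2.26, 1.99, 2.68 and 2.72 CPM at 0 h and 375, 367, 368 and 349 CPM at 5 h in the Nur77 line (-2.99, SE 0.283). The Nur77 line was thus above the GFP line at both times in Ccl22, and its fold change was the smaller.

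For Irf1 and Gbp2 the lines lay further apart at 5 h than at 0 h. Irf1 was at 16.6, 15.05, 15.1 and 14.2 CPM at 0 h and 115, 124, 116 and 118 CPM at 5 h in the GFP line, and at 20.5, 21.1, 20.5 and 18.2 CPM and 35.4, 33.4, 36.8 and 33.3 CPM in the Nur77 line (-2.17, SE 0.296, edgeR adjusted p = 5.17e-05). Gbp2 reached 18.6, 19.2, 16.9 and 19.2 CPM at 5 h in the Nur77 line, below all 5 h libraries of the GFP line (-2.58). Marcks, a membrane-bound substrate of protein kinase C, had the most negative difference (-5.63, SE 0.415), from 0.169, 0.205, 0.0842 and 0.271 CPM to 43.4, 45.4, 45.4 and 46.7 CPM in the GFP line and from 3.46, 4.05, 4.22 and 4.54 CPM to 21.8, 17.1, 18.6 and 22.3 CPM in the Nur77 line.

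Genes with a more positive response in the Nur77 line included Fos and Usp18. Fos was at 4.43, 4.46, 4.40 and 4.99 CPM at 0 h and 3.99, 6.12, 3.42 and 3.74 CPM at 5 h there, and these groups overlapped (2.04, SE 0.185, edgeR adjusted p = 3e-08). Usp18, a brake on the type I interferon receptor, rose from 9.62, 8.96, 8.88 and 10.98 CPM to 52.3, 62.8, 60.003 and 52.0 CPM in the GFP line and from 3.38, 4.39, 4.34 and 3.70 CPM to 81.3, 97.6, 109.7 and 95.02 CPM in the Nur77 line (2.03). Arl4c, a GTPase that LXR induces, fell in the GFP line from 4.89, 6.02, 7.16 and 7.32 CPM to 0.335, 0.356, 0.546 and 0.297 CPM (-4.00). In the Nur77 line, which began lower, it was at 2.74, 1.72, 2.02 and 1.30 CPM and 0.678, 0.648, 0.891 and 0.456 CPM, a difference of the responses of 2.51. For Nos2, Ptgs2, Il1b and Il6 the difference was not called (edgeR adjusted p = 0.227, 0.14, 0.955 and 0.94), which does not show that the lines responded alike. The differences of Nos2 (1.63) and Ptgs2 (-1.42) were called under some alternative fits, those of Il1b and Il6 under none. Acod1 was called (-1.15, edgeR adjusted p = 0.0344), but lost the call in 12 of 16 omissions of a single library and stood at -1.83 without GFP line 0 h replicate 2.

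**Figure D5:**
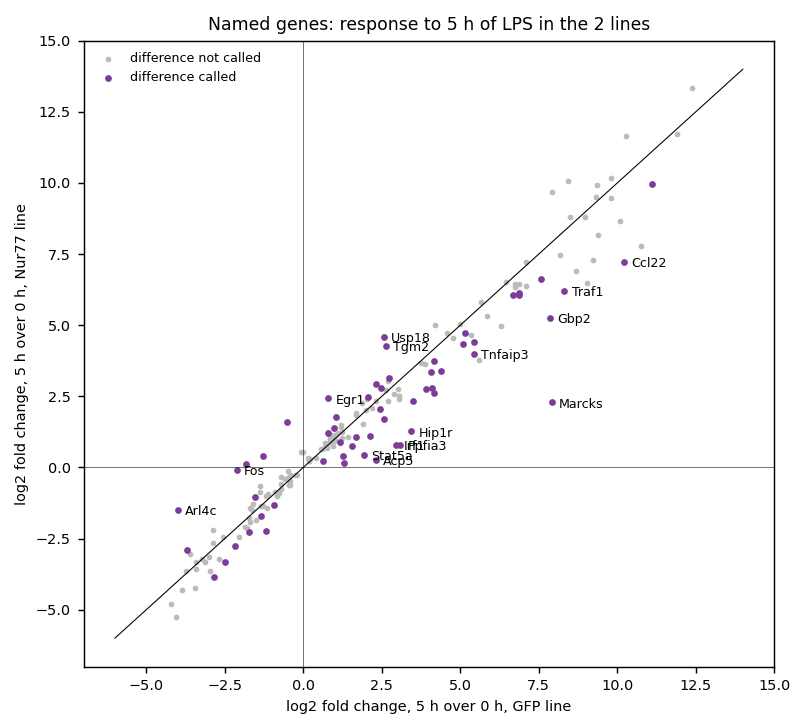
Log2 fold change of 5 h of LPS over 0 h in the Nur77 line (vertical axis) against that in the GFP line (horizontal axis), 1 point for each of 187 named genes, with the line of equal response. Purple points are genes whose difference was called at an adjusted p under 0.05, and Marcks (-5.63) lies farthest below the line and Arl4c (2.51) farthest above it among them.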

How the data were processed

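Per the labels' protocols, a KAPA mRNA HyperPrep kit was used, which captures poly(A) RNA. Per the submitters' processing notes, HISAT2 2.1.0 and CASAVA 1.8.2 were used with build mm10. How reads were counted, with which annotation and whether by strand, is not given in the sources used here. Without a stated strand, reads of a gene and of its antisense partner cannot be told apart. The authors deposited estimated counts for 42361 transcripts in 24 libraries, all multiples of 0.5 (tolerance 1e-09), with 53.7% of the non-zero values whole. Identifiers were matched to symbols for 42203 transcripts through a RefSeq table of GRCm38.p6 and for 65 through GENCODE, and 93 kept their identifier (0.496% of counts). One transcript, that with the highest mean count, stood for each of 25160 genes, of which 8193 had several. Depth was 8134143 to 29275847 counts per library.

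Values were rounded to whole numbers (0.5 upward), filtered with filterByExpr (12213 genes left) and scaled by TMM (factors 0.896 to 1.14). A single edgeR 4.0.16 quasi-likelihood fit of 6 group means over 24 libraries (R 4.3.3, robust, 18 residual degrees of freedom, common biological coefficient of variation 0.0978) gave every test, with Benjamini-Hochberg adjustment over all genes tested and 0.05 as the threshold. A standard error is the size of a log2 fold change over the root of its F statistic. On simulated data of 12008 genes for LPS at 5 h against 0 h, the test recovered 96 of 99 genes changed by 1 on the log2 scale and 78 of 99 changed by 0.5, and called 13 of 11810 unchanged genes. The simulation gave every gene the same spread and changed few genes, evenly up and down. These rates therefore need not hold for the data, where most genes were called. Alternatives used DESeq2 1.42.0, other filters, scalings, sample sets, a replicate block and omission of each library. Replicates of GFP line 0 h and of GFP line 5 h differed by more than sampling noise, at 2.85 to 24.4 times the chi-square expected per degree of freedom, so none of these 8 was counted as a duplicate of another in its group. Figures and tables used Python 3.11.15, pandas 2.3.3, SciPy 1.17.1 and matplotlib 3.10.9.

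The members and gene lists were chosen with earlier results of these data known. Named genes were a panel of 18 response genes, the 15 risen and 15 fallen genes with the largest change at 10 CPM or more and without overlap, up to 4 genes of smallest adjusted p per list, and the 6 genes at each end of the comparison with 1 h and of the difference between lines. Some genes that this rule gives are not reported here. Genes named beside these, after their values were seen, were Axl, Bmf, Ccnd2, Cdk6, Csf1r, Cxcl14, Cyld, Gbp8, H2-DMa, Ifngr1, Irf2, Mcm2, Mcm6, Nfkb1, Nfkb2, Nr4a3, Plk4, Ptgs1, Rela, Relb, Tlr4 and Tlr8. Motifs were searched in the 250 bases before the start on both strands.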

Additional observations from a re-analysis of the deposited data

Results flagged for a closer look

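In 21 cases a single library of a group stood apart from the other 3 in a named gene, its gap to the nearest of them taking most of the group's range (Dixon's criterion), which chance alone gives in about 1 of 20 groups. The criterion was applied at 0 h and at 5 h to each reported gene among 187 named genes tested. Chance alone could therefore give a count of this order. Among the 0 h libraries, replicate 2 was the highest for Acod1 (4.65 CPM), Csf3 (0.889 CPM) and Heatr9 (0.137 CPM), and replicate 1 was the odd one for Ccl2 (17.4 CPM) and Sod2 (121 CPM). Replicate 4 at 0 h stood apart for Tapbp (145 CPM), Ppp1r15a (45.9 CPM), Hsp90aa1 (1147 CPM) and Tnfrsf1b (73.7 CPM). Among the 5 h libraries, replicate 2 stood apart for Gbp5 (228 CPM), Map3k8 (26.2 CPM), Ndufb10 (42.2 CPM), Nceh1 (116 CPM), Tapbp (335 CPM) and Cd44 (2905 CPM). Replicate 3 did so for S1pr1 (12.3 CPM) and Psmd11 (209 CPM), and replicate 4 for Nr4a1 (2.15 CPM), Ndufb3 (40.2 CPM), Kdr (1.11 CPM) and Il33 (12.3 CPM).

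For 55 named genes reported here, the 5 h response differed between the lines by edgeR's quasi-likelihood test of that difference (Nur77 line minus GFP line, log2 scale). Some of these genes, such as Marcks and Usp18, were named because they lay at an end of this same difference. The count of 55 is therefore partly set by the choice of genes. It is not read against the share of all genes tested, 970 of 12213 (7.94%). Among cytokine, chemokine and receptor genes it was -0.94 for Tnf, -2.99 for Ccl22, -1.55 for Gpr84, -0.99 for Tnfrsf1b, -0.75 for Cd40, -1.15 for Icam1, -1.06 for Cd300lb and 2.11 for Kdr. Signalling genes gave -2.10 for Traf1, -1.43 for Tnfaip3, -1.31 for Nfkbia, -1.01 for Zc3h12a, -0.42 for Socs3, -0.39 for Irak2, -0.86 for Tlr1 and -1.13 for Ikbke. Transcription factor genes gave 2.04 for Fos, 1.65 for Egr1, -1.49 for Stat5a, -2.17 for Irf1 and -0.71 for Maff. Interferon-related genes gave 2.03 for Usp18, 0.40 for Trim30a, 0.39 for Irgm1, -0.79 for Oasl1, -0.73 for Ifih1 and -2.58 for Gbp2, and class I genes -0.29 for Tapbp and -1.13 for Tapbpl. Inflammasome genes gave -0.44 for Nlrp3, -0.54 for Nlrp10 and -0.42 for Casp1.

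Enzyme and metabolic genes gave -1.15 for Acod1, -1.01 for Arg2, 0.31 for Sod2, -0.37 for Alox5, -0.62 for Sqstm1, 0.73 for Hk2, 0.42 for Slc16a3, -0.39 for Idh1, 0.47 for Dhcr7, -0.82 for Acsl1, -0.82 for Cpt1a and 1.66 for Tgm2. Cell cycle and stress genes gave -0.59 for Cdc6, -1.02 for Ung, 1.68 for H1f2 and 0.61 for Ppp1r15a, and the osteoclast genes Clcn7 and Acp5 gave -0.87 and -2.03. The remaining values were 2.51 for Arl4c, 1.93 for Spire2, -5.63 for Marcks, -2.28 for Ppfia3 and -2.16 for Hip1r. Omission of single libraries ended the call in most of 16 omissions for Idh1 (15, adjusted p up to 0.124), Cd40 (14, up to 0.181), Acod1 (12, up to 0.112), Tapbp (12, up to 0.0844) and Nlrp10 (10, up to 0.0994).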

How the results depend on the processing

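In the comparison of 5 h with 0 h, the count of genes called ranged from 7249 to 8032 over 18 alternatives, against 7642. Leaving out 1 of its 8 libraries gave 7249 to 7621 genes, of which 7099 to 7227 were among the 7642, and none reversed. For the 5 h and 1 h libraries such omissions gave 6277 to 6522 genes, and for the difference between the lines 718 to 917 (254 to 330 more positive, 463 to 599 more negative). The difference between the lines moved most with the libraries fitted, which set the filter, the scaling and the spread together: it was called for 970 genes, for 2084 in a fit of only the 4 groups compared (914 more positive, 1170 more negative) and for 1672 without Nur77 line 1 h replicate 2 (641 and 1031). Of 3363 alternative values of named genes against 0 h, 3354 kept their side of the threshold. The others were Rpl4, Rps6 and Vwf, given under the other observations. Of 216 values against 1 h all kept their side. For the difference between the lines 4491 of 4672 values did, 86 losing and 95 gaining a call. None of these values changed sign while called. Values called in neither fit could change sign. Nr4a1 against 0 h went from -0.08 to 0.01 without GFP line 5 h replicate 4. The Il1b difference between the lines went from -0.18 to 2.07 without Nur77 line 0 h replicate 4. Among list counts, ribosomal proteins called higher went from 3 to 10 in a fit of only the 8 libraries, to 6 in the 12 GFP line libraries and to 5 without 0 h replicate 4. With a replicate block, 7549, 6578 and 845 genes were called in the 3 comparisons. Replicate numbers did not pair the libraries: deviations of same-numbered libraries correlated at -0.265 to 0.0130 between 0 h and 5 h and at -0.0399 to 0.0869 between 1 h and 5 h in the GFP line, and at -0.148 to 0.0623 in the Nur77 line. Genes with 3 or fewer counts at 0 h have fold changes limited by depth.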

Other observations

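Ribosome biogenesis genes, which process ribosomal RNA and assemble ribosomes, rose in 23 of 32 tested at 5 h of LPS in the GFP line and fell in 1 (30.6% of all genes rose), with a median log2 fold change of 0.36, and 21 were above their 1 h level. Rrs1 was at 91.0, 95.8, 93.1 and 112 CPM at 0 h and 230.2, 235, 226 and 237 CPM at 5 h (1.24, SE 0.0659, edgeR adjusted p = 1.09e-14). Rrp9, Wdr43 and Wdr75, of the small subunit processome, rose by 0.84, 0.70 and 0.39. The single fall was not called without 0 h replicate 2 or 3 or 5 h replicate 2 or 3. Of 32 ribosomal protein genes, whose many pseudogenes can take their reads, 3 rose and none fell (median 0.08). Rpl4 (0.17) lost its call in 3 of 8 omissions of a library (edgeR adjusted p up to 0.098), and Rps6 (0.15, edgeR adjusted p = 0.0623) gained one under some alternatives.

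Stress gene lists lay not far from the shares of all genes (30.6% higher, 31.9% lower). Of 29 genes of the unfolded protein and integrated stress responses 11 rose (37.9%) and 7 fell (24.1%). Atf4, the central factor of the integrated stress response, was at 466, 432, 427 and 490.3 CPM at 0 h and 796, 837, 820.0 and 822 CPM at 5 h (0.85, SE 0.0706), Ppp1r15a, which restores translation, rose by 2.31, Herpud1 of endoplasmic reticulum degradation by 1.09 and Chac1, which degrades glutathione, by 1.21. Of 15 heat shock chaperone genes 6 rose (40.0%) and 4 fell (26.7%). Hspa1b, an inducible Hsp70 whose copy Hspa1a could share its reads, was at 0.169, 0.547, 0.421 and 0.497 CPM at 0 h and 3.97, 3.74, 3.28 and 3.34 CPM at 5 h (3.05), and Hsp90aa1, Bag3 and Stip1 changed by 0.58, -0.71 and 0.82.

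Osteoclast genes, which RAW 264.7 cells can express when they differentiate, rose in 7 of 12 tested and fell in 3 (median 0.74). Nfatc1, the factor that drives that program, was at 53.8, 43.9, 49.9 and 37.8 CPM at 0 h and 14.6, 15.8, 15.5 and 13.7 CPM at 5 h (-1.63, SE 0.114), Acp5, a phosphatase of bone resorption, rose by 2.30 and Clcn7, a chloride carrier, by 1.26. Among markers of other cell types, Pdgfrb, a fibroblast receptor gene, was at 0, 0, 0.0842 and 0.0904 CPM at 0 h and 2.51, 3.65, 2.37 and 3.41 CPM at 5 h (5.58), and Lck rose by 1.20. The endothelial gene Vwf differed by -0.46 with overlapping groups, and lost its call in 2 of 8 omissions (edgeR adjusted p up to 0.0687). Kdr, another endothelial gene, was not called (-0.51, edgeR adjusted p = 0.243), nor was the neutrophil gene S100a8 (edgeR adjusted p = 0.999).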
